A study of Rattus norvegicus with 6 samples.

Results

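The genes described here are 10 transcription factors that direct the formation of white blood cells: Spi1, Cebpa, Cebpb, Cebpe, Gfi1, Runx1, Myb, Gata2, Irf8 and Ikzf1. They were chosen by gene name in a table of 30600 rows with values, of which 22050 were annotated rat genes, and all 10 had 1 row each. The table came from RNA sequencing of rat subchondral bone, the bone plate beneath joint cartilage. Its 6 libraries carry the titles S23, S21, S20, S13, S12 and S10. The series was set up to compare rats at a low temperature with rats at a normal one, but the labels used here give no temperature, treatment, strain, age or group for any library. The 6 libraries were therefore kept as single samples: values are given per library, no cold effect was tested, and the labels do not say whether each library is a different animal.

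Blood cells form in the marrow that fills the spaces of such bone, and the 10 factors act at different points of that process. Runx1, Myb and Gata2 work in stem and progenitor cells. Spi1, which encodes PU.1, and Cebpa commit progenitors to the myeloid line, and Gfi1 and Cebpe carry cells on to the neutrophil. Irf8 favours monocytes and dendritic cells, Cebpb serves granulocytes and macrophages under demand, and Ikzf1 (Ikaros) is needed for lymphocytes and is also present in other blood cells. These roles were worked out mainly in mouse and human cells.

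All 10 factors were detected in every library. The median of each was 1 FPKM or more (FPKM, as deposited, being fragments adjusted for library size and transcript length), a level reached by 52.7% of annotated genes. The lowest count of any factor in any library was 118, for Cebpb in S20, and total counts were 39990624 to 59200981 per library. Medians ran from 3.95 FPKM for Cebpb to 92.3 FPKM for Spi1, and the factors summed to 231 FPKM in S10 and 446 FPKM in S23, the lowest and highest sums. By falling median the order was Spi1, Cebpe, Irf8, Myb, Cebpa, Ikzf1, Gfi1, Runx1, Gata2 and Cebpb.

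The ranges of all neighbouring pairs overlapped except Gata2 and Cebpb, whose lowest Gata2 value (6.23 FPKM) lay above the highest Cebpb value (5.08 FPKM). Spi1 was nonetheless the highest of the 10 in each of the 6 libraries, and above Cebpe in all 6. Within libraries the higher neighbour was above the lower in 5 of 6 for Cebpe over Irf8, Irf8 over Myb, Ikzf1 over Gfi1 and Gfi1 over Runx1. It was above in 4 of 6 for Cebpa over Ikzf1 and Runx1 over Gata2, and in 3 of 6 for Myb over Cebpa. Cebpb was the lowest factor in 5 libraries, and in S10 Ikzf1 was lower.

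**Figure D1:**
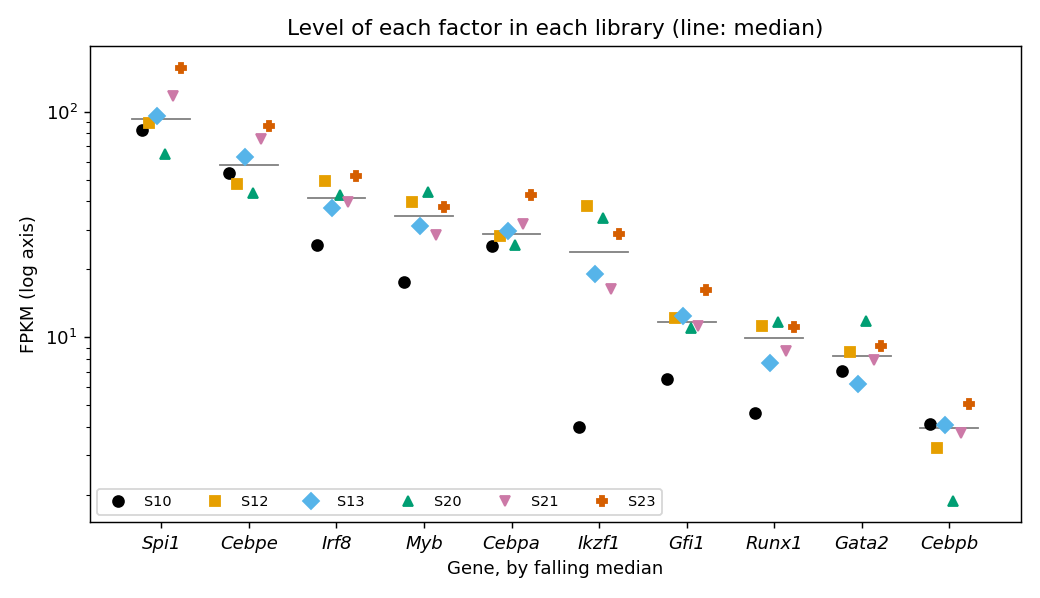
FPKM on a log axis for each of the 10 factors in each of the 6 libraries, with a grey line at the median over the libraries. Spi1 is highest in every library at 64.7 to 156 FPKM, and the Ikzf1 value of S10 (4.03 FPKM) lies apart from its other 5 values (16.3 to 38.1 FPKM).

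Libraries differed in ways that touch every factor. Globin rows held 27.6% of counts in S10, 10.4% in S23 and 18.9% to 20.8% in the others. Over the 11625 annotated genes whose median was 1 FPKM or more, called expressed genes here, the middle gene of S10 lay 0.31 below its own median on the log2(FPKM + 1) scale. That of S12 lay 0.14 above, and those of the other 4 libraries were within 0.1. The shift in S10 grew with transcript length, from 0.03 in the shortest of 20 length classes to -0.66 in the longest. S20 and S12 had trends of the opposite direction, from -0.25 to 0.50 and from -0.06 to 0.42. With TMM factors, which centre the bulk of genes, the shift of S10 became 0.00. S10 values relative to the middle gene are given below for Gfi1, Irf8 and Ikzf1. Taken that way, the S10 difference from the own median went from -0.153 to 0.161 for Spi1 and from -0.175 to 0.139 for Cebpa. It went from -0.113 to 0.202 for Cebpe, from -0.203 to 0.111 for Gata2 and from 0.059 to 0.373 for Cebpb. Myb and Runx1 stayed below, going from -0.929 to -0.615 and from -0.95 to -0.636. Skeletal muscle and fat genes, from tissue next to or within the bone, were highest in S12. This held for 4 of 4 and 5 of 5 expressed genes of the lists, against 26.6% of all expressed genes. Summed FPKM of these lists ranged from 12.2 in S20 to 107 in S12 for muscle and from 81.7 in S23 to 434 in S12 for fat. The part of these differences in the results below was not tested. Counts over related gene lists below use FPKM as deposited, and were not repeated under other scalings. In such bulk tissue, fewer cells of a type and less RNA per cell cannot be told apart.

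Spi1 and Cebpe moved together over the libraries and were highest in S23. Spi1 had 64.7 FPKM in S20, 82.8 in S10, 88.6 in S12, 95.9 in S13, 117 in S21 and 156 in S23, a 2.42-fold span. Cebpe, the factor of the last granulocyte stages, had 43.8 FPKM in S20, 47.9 in S12, 53.6 in S10, 62.8 in S13, 75.6 in S21 and 86.1 in S23, a 1.97-fold span. S21 and S23 were the top libraries for both genes and S20 the lowest for both, although S10 became the lowest for both when FPKM were brought to a common sum, with or without globin and mitochondrial rows. The ratio of the genes within a library does not depend on library scaling. Spi1 to Cebpe stayed between 1.48 (S20) and 1.85 (S12), which made this the second steadiest of the 45 pairs of factors.

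Cebpa and Cebpb were also highest in S23 as deposited, Cebpa with a narrower span than Spi1 and Cebpe (1.69-fold) and Cebpb with a wider one (2.68-fold). Cebpa, which opens the granulocyte programme, ranged from 25.3 FPKM in S10 to 42.7 in S23 with a median of 28.7. Without S23 its range on the log2(FPKM + 1) scale fell from 0.73 to 0.32, so its spread rested on that library. With TMM or median-ratio factors or length correction, its lowest library was S20 and not S10. Cebpb, the factor of demand-driven granulopoiesis and of macrophages, had 1.89 FPKM in S20 and 3.23 to 5.08 in the other 5 libraries, with a median of 3.95. The S20 value rests on 118 counts, and its exact 95% Poisson interval of 1.57 to 2.27 FPKM, which covers counting error only, stays under all others. With TMM or median-ratio factors its highest library was S10.

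The wider C/EBP list held 7 genes, Cebpz by its name, and all were expressed, where 52.7% of annotated genes were. Cebpd, a relative induced in maturing granulocytes and in inflammation, was at 32.1 FPKM in S20 and 80.8 in S23 with a median of 55.7, close to Cebpe. Cebpg and Cebpz varied little, with ranges of 0.38 and 0.50 log2 units, and both were highest in S20. Among the 7, 4 were highest in S23 (background 24.0%), 2 in S20 (background 28.8%) and 1 in S21.

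Gfi1 and Irf8, repressor and activator in the choice between neutrophil and monocyte, shared their lowest and highest libraries as deposited. Gfi1 had 6.57 FPKM in S10, 11.0 in S20, 11.3 in S21, 12.2 in S12, 12.4 in S13 and 16.2 in S23. Irf8 had 25.5 FPKM in S10, 37.2 in S13, 39.8 in S21, 42.8 in S20, 49.3 in S12 and 52.0 in S23. Both were lowest in S10 and highest in S23, with Irf8 highest in S12 once globin and mitochondrial rows were left out of the sum. Their ratio, Gfi1 to Irf8, ran from 0.248 in S12 to 0.333 in S13, the third steadiest pair. By nearness of profile Irf8 was only number 320 among expressed genes for Gfi1, and Gfi1 number 920 for Irf8.

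The spread of Gfi1 and Irf8 came mostly from S10. Without that library the range fell from 1.19 to 0.52 log2 units for Gfi1 and from 0.998 to 0.471 for Irf8. Relative to the middle gene of S10, Gfi1 lay 0.43 and Irf8 0.36 lower, against 0.75 and 0.67 before that step. Of 9 interferon regulatory factors, 8 were expressed (background 52.7%), and 7 of those were lowest in S10, as were 60.1% of all expressed genes. Irf9 and Irf8 had nearly equal medians of 41.5 and 41.3 FPKM, followed by Irf7 at 34.1 and Irf3 at 26.5. Irf7, an interferon-induced member, took another course, with 57.1 FPKM in S13 and 18.2 in S23.

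The progenitor factors Myb and Runx1 formed the steadiest pair. Myb, required for proliferating progenitors, had 17.5 FPKM in S10, 28.5 in S21, 31.0 in S13, 37.9 in S23, 39.9 in S12 and 44.0 in S20. Runx1, the DNA-binding part of core-binding factor, had 4.62 FPKM in S10, 7.69 in S13, 8.69 in S21, 11.2 in S12, 11.2 in S23 and 11.7 in S20. Their ratio, Runx1 to Myb, was between 0.248 (S13) and 0.305 (S21), a 1.23-fold span that was the narrowest of the 45 pairs. By nearness of profile Myb was only number 109 among expressed genes for Runx1, and Runx1 number 151 for Myb. Both were lowest in S10 and highest in S20, in contrast to Spi1 and Cebpe, which were lowest in S20. Without S10 their ranges fell from 1.28 to 0.61 and from 1.17 to 0.54 log2 units.

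Gata2, a factor of stem cells, mast cells and basophils, was highest in S20 as well. It had 6.23 FPKM in S13, 7.06 in S10, 7.95 in S21, 8.63 in S12, 9.14 in S23 and 11.8 in S20. After length correction S10 and not S20 was its highest library, and with a common sum S10 and not S13 was its lowest. Its median of 8.29 FPKM was below that of Gata1 (28.9 FPKM), the erythroid and megakaryocyte member of the family, and Gata3, the T cell member, was at most 0.615 FPKM. Gfi1b, the erythroid relative of Gfi1, and Zfpm1, the partner of Gata1, peaked in S20 too, with medians of 32.7 and 29.4 FPKM. Of the 7 expressed basophil and mast cell genes none was highest in S20, where 28.8% of all expressed genes were highest, and Kit had 6.96 FPKM there against 7.13 in S12.

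Relatives of Runx1 and Myb were measured beside them. Cbfb, the common partner of the Runx proteins, was higher and steadier than Runx1, at 21.4 to 29.5 FPKM. Runx3 and Runx2 had medians of 4.53 and 3.57 FPKM, and the latter also marks osteoblasts. All 6 expressed genes of the Runx and core-binding factor list were lowest in S10, against the same background of 60.1%. Mybl2, a cell cycle member, was at 18.9 FPKM in S10 and 38.9 in S20, and Mybl1 had a median of 0.81 FPKM.

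Ikzf1 varied more than any of the other 9 factors over the 6 libraries, though without S10 Spi1 varied more (1.26 against 1.18 log2 units). It had 4.03 FPKM in S10, 16.3 in S21, 19.0 in S13, 28.8 in S23, 33.9 in S20 and 38.1 in S12. The S10 value rests on 358 counts with an exact 95% Poisson interval of 3.62 to 4.47 FPKM, and the next lowest library had 2154 counts. The range was 2.96 log2 units, a 9.46-fold span, and 126 of 11625 expressed genes, Ikzf1 counted, had one at least as wide. In S10 Ikzf1 was 2.28 log2 units under its median. That is 1.97 under the middle gene of the library and 2.02 under the middle gene of its length class, and 22 expressed genes, Ikzf1 among them, lay as low or lower.

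The low value of Ikzf1 in S10 kept under each scaling tried, with ranges of 2.46 to 3.23 log2 units and S10 lowest and S12 highest in all of them. The other Ikaros family genes were scarce: Ikzf5 and Ikzf3 had medians of 2.29 and 1.71 FPKM and were lowest in S10, at 0.48 FPKM each, while Ikzf2 and Ikzf4 had medians under 1 FPKM. Genes of B cell precursors, in which Ikaros acts, did not show the same low library. None of the 9 expressed genes of that list was lowest in S10, against 60.1% of all expressed genes, and in S10 Cd79b had 67.2 FPKM, above its median of 51.6. The T and NK cell list had 2 of 8 expressed genes lowest in S10 (Cd4 at 8.04 FPKM and Tcf7 at 0.720) and 2 highest there (Cd3e at 4.70 and Cd3d at 4.36).

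**Figure D2:**
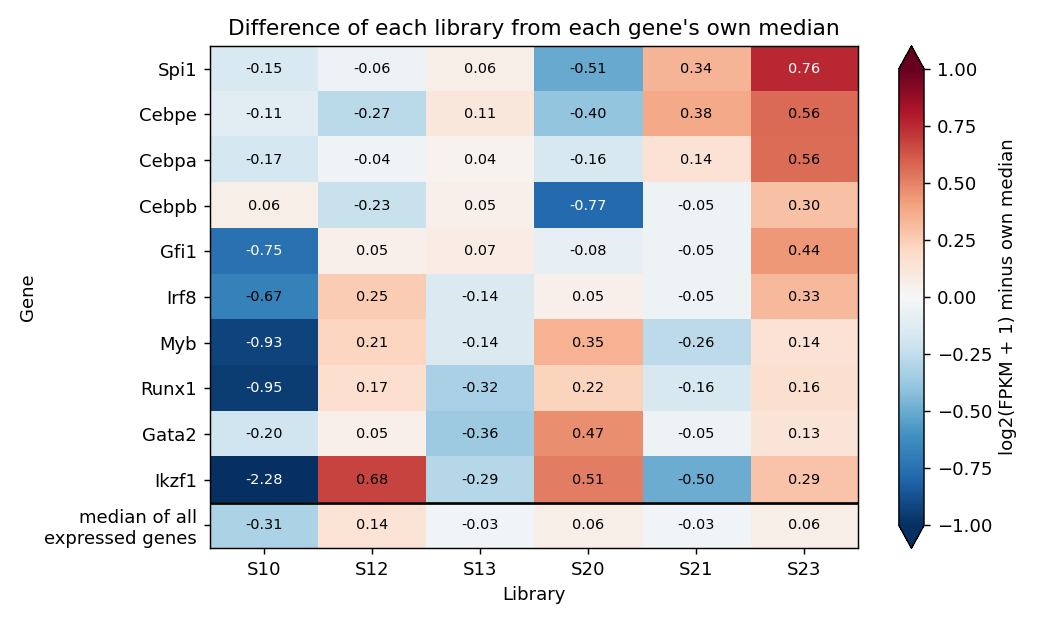
log2(FPKM + 1) of each library minus the gene's own median over the 6 libraries, for the 10 factors and, in the last line, the median over all expressed genes, with colour reaching its limit at 1 log2 unit. Spi1, Cebpe, Cebpa and Cebpb are above their medians in S23 and below them in S20, Gfi1, Irf8, Myb and Runx1 are low in S10, and Ikzf1 in S10 stands at -2.28.

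Cebpe and Ikzf1 had the profiles farthest apart, with a mean absolute difference of 0.93 log2 units over the libraries, and their promoters are shown for that reason. The windows come from RefSeq, build GRCr8, and cover 250 bases before to 50 after the annotated gene start, read 5′ to 3′ on the gene's strand. The letters GAGGAA, the core bound by PU.1, are in capitals on either strand, where the reverse strand reads TTCCTC.
Cebpe, chr15:32141427-32141726, minus strand: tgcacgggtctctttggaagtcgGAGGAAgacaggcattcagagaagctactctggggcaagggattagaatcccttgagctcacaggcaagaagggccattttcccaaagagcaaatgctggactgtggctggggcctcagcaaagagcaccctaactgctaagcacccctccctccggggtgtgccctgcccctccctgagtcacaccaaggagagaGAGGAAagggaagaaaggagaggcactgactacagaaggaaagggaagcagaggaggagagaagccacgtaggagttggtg
Ikzf1, chr14:90468446-90468745, plus strand: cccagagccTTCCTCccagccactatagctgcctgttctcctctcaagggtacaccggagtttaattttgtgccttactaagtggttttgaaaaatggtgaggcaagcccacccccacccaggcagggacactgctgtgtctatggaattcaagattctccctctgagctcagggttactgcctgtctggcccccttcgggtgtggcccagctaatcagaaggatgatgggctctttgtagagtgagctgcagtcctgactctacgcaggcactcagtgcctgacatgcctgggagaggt

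Promoter windows were at hand for 8 of the 10 factors, all but Spi1 and Myb. GAGGAA occurred 2 times in the Cebpe window and once in that of Ikzf1, and in 2 of the 8 windows in all, against 27.6% of 33469 rat promoters of the same length. TTNCNNAA, letters of a C/EBP site, occurred in 3 of 8 windows (Gfi1, Cebpe and Ikzf1) and in 41.3% of all promoters. TGNGGT, letters of a Runx site, occurred in 2 of 8 (Cebpa and Gfi1) against 47.1%, and AACNG, letters of a Myb site, in 7 of 8 against 81.4%. AGATAA, letters of a GATA site, was in none of the 8 and in 11.6% of all. All motifs were searched on both strands and matches may overlap. A match describes letters in a window and not a bound site. The windows differed in composition, from 34.3% G and C for Runx1 to 81.0% for Cebpb, around a median of 51.7% over all promoters.

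Counted over the 10 factors, 6 spanned at least 1 log2 unit: Spi1, Cebpb, Gfi1, Runx1, Myb and Ikzf1. The share among all expressed genes was 36.6%. Irf8 at 0.998 and Cebpe at 0.961 fell just short, and Cebpb at 1.070 lay just above. The median range was 1.12 log2 units for the factors and 0.83 for all expressed genes. The count depended on single libraries and on scaling. It was 3 (Spi1, Cebpb and Ikzf1) with TMM factors, where the background was 29.1%, the same 3 without S10 (background 13.6%), and 3 (Ikzf1, Myb and Runx1) without S23 (background 32.0%).

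**Figure D3:**
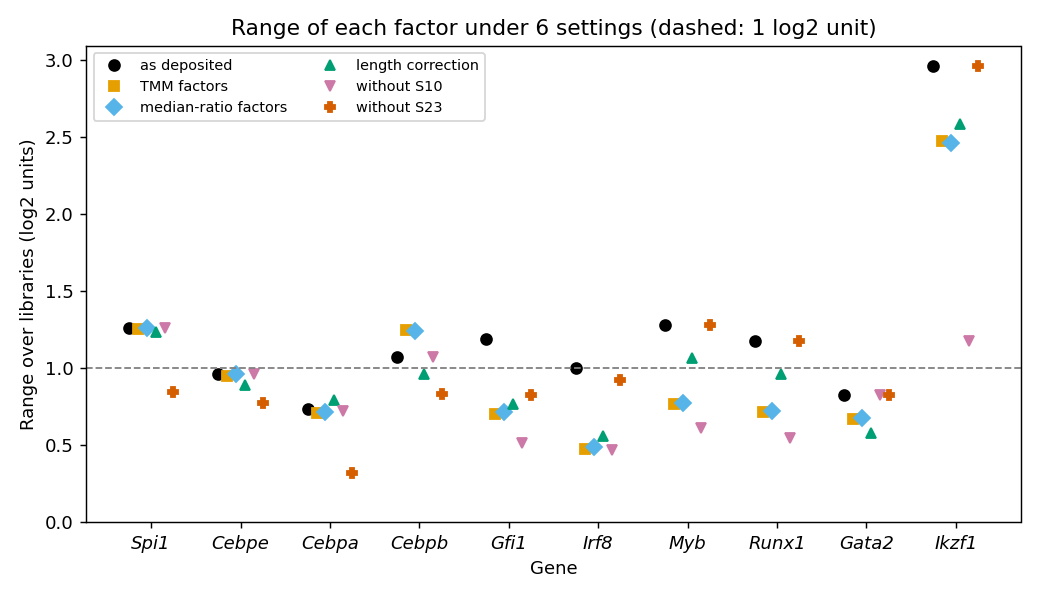
Range over the libraries of each factor's log2(FPKM + 1) under 6 settings, with a dashed line at 1 log2 unit. Ikzf1 stays above the line in all 6, whereas Gfi1, Irf8, Myb and Runx1 are at 0.61 or less without S10.

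S23 was the highest library for 6 of the 10 factors (Spi1, Cebpa, Cebpb, Cebpe, Gfi1 and Irf8), against 24.0% of expressed genes. S20 was highest for 3 (Runx1, Myb and Gata2; background 28.8%) and S12 for 1 (Ikzf1; background 26.6%). The lowest library was S10 for 6 factors, which was also the lowest for 60.1% of expressed genes, so that share is that of the background. S20 was lowest for 3 (Spi1, Cebpb and Cebpe; background 17.1%) and S13 for 1 (Gata2; background 4.09%). The number lowest in S20 was 4, with Cebpa added, under TMM factors, median-ratio factors and length correction, 1 (Cebpb) with either common sum, and 5 without S10. The number highest in S23 was 5 or 6 under every scaling tried, and 5 after globin and mitochondrial rows were left out, although S23 had the smallest share of globin counts.

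Genes of the neutrophil granules, which Cebpa and Cebpe help to switch on, were also highest in S23. This held for 5 of 5 primary granule genes with a row and for 9 of 9 expressed late granule genes (background 24.0%). Ctsg, Elane, Mpo and Prtn3, the proteases and peroxidase of the primary granules, had medians of 916, 603, 572 and 471 FPKM. Camp, Ngp, Lcn2 and Mmp8 led the late granule list with medians of 2731, 2190, 898 and 373 FPKM. Camp, a cathelicidin peptide gene, had 4244 FPKM in S23, 3621 in S10 and 1046 in S20. Ltf, the lactoferrin gene and a known target of Cebpe in mouse, had at most 5 counts in any library, so its row gave no level at this depth.

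Receptors for myeloid growth factors were all expressed, 10 of 10, where 52.7% of annotated genes were. Csf2ra, a subunit of the GM-CSF receptor, ranged from 64.6 FPKM in S20 to 128 in S23, the same lowest and highest libraries as Spi1. Csf3r, the G-CSF receptor, ranged from 11.3 FPKM in S10 to 51.7 in S23, and Csf1r, the M-CSF receptor, from 16.8 in S10 to 44.8 in S12. Csf2rb, the shared beta subunit, spanned 3.77 to 32.4 FPKM with S10 lowest, a range of 2.81 log2 units. Kit and Flt3, receptors of early progenitors, were low, with medians of 4.25 and 3.42 FPKM.

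Markers of monocytes and macrophages were present, with 8 of 8 genes with a row expressed (background 52.7%). Of these, 5 were highest in S23 (background 24.0%). Lyz2, Cd68, Fcgr1a and Csf1r had medians of 7399, 64.4, 52.9 and 33.6 FPKM. Factors that act with Spi1 and Irf8 in these cells were lower, with Id2, Klf4 and Zeb2 at 56.8, 11.2 and 8.80 FPKM, and 7 of 8 expressed genes of that list were lowest in S10 (background 60.1%). Of 7 dendritic cell genes 3 were expressed, where 52.7% of annotated genes were, led by Bst2 at 62.1 FPKM and Itgax at 7.91, and Xcr1, a marker of conventional dendritic cells, reached at most 0.202 FPKM.

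Other blood and bone lineages showed further orders of the libraries. Stem cell factors Lyl1, Tal1 and Lmo2 had medians between 50.7 and 69.3 FPKM, and Hlf and Mecom, factors of the most immature cells, were at most 0.302 and 0.169 FPKM. Of the surface genes of stem and progenitor cells 4 of 6 with a row were expressed (background 52.7%), with Cd34 at a median of 2.92 FPKM. All 5 erythroid genes with a row were highest in S20 (background 28.8%), as were Myb, Runx1 and Gata2. Gata1, not on that list, was highest in S12 (34.3 FPKM against 29.5 in S20). Globin rows held their largest share of counts in S10 (27.6%, against 19.3% in S20). In S23 the erythroid genes differed from their own medians by a median of -0.655 log2 units, against 0.141 for Myb, 0.164 for Runx1 and 0.127 for Gata2. Tfrc, the transferrin receptor, ranged from 78.2 FPKM in S10 to 313 in S20. Of 5 megakaryocyte genes, 2 were highest in S10 and 2 in S21. As a check of the labelled tissue, all 7 osteoblast genes were expressed (background 52.7%), with Bglap at 255 to 610 FPKM. So were 5 of 7 osteoclast genes, with Ctsk at 220 to 508 FPKM.

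Ratios of factors within a library set the granulocyte factors against the progenitor factors free of library scaling. They are not free of the length trends given above. Implied lengths were 1.79 kilobases for Cebpe, 2.08 for Myb, 2.16 for Spi1, 3.12 for Irf8 and 2.92 for Cebpa. In S10 the length-class middle gene lay at -0.175 for Cebpe, -0.186 for Myb, -0.263 for Spi1, -0.413 for Irf8 and -0.37 for Cebpa. The part of length in these ratios was not tested. Cebpe to Myb was 0.996 in S20, 1.20 in S12, 2.03 in S13, 2.27 in S23, 2.66 in S21 and 3.06 in S10. S12 and S20 thus held Cebpe and Myb at about equal levels, and the other 4 libraries held at least 2.03 times as much Cebpe as Myb. Spi1 to Irf8 was 1.51 in S20 and 1.80 in S12, and 2.58 to 3.24 in the other libraries. Spi1 to Cebpa was 2.53 in S20 and 3.16 to 3.68 elsewhere. Of the 45 pairs, 15 kept their ratio within 1 log2 unit over the 6 libraries, and 27 did without S10. The widest pair was Cebpb to Ikzf1, at 0.0559 in S20 and 1.03 in S10, and it still spanned 4.15-fold without S10.

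**Figure D4:**
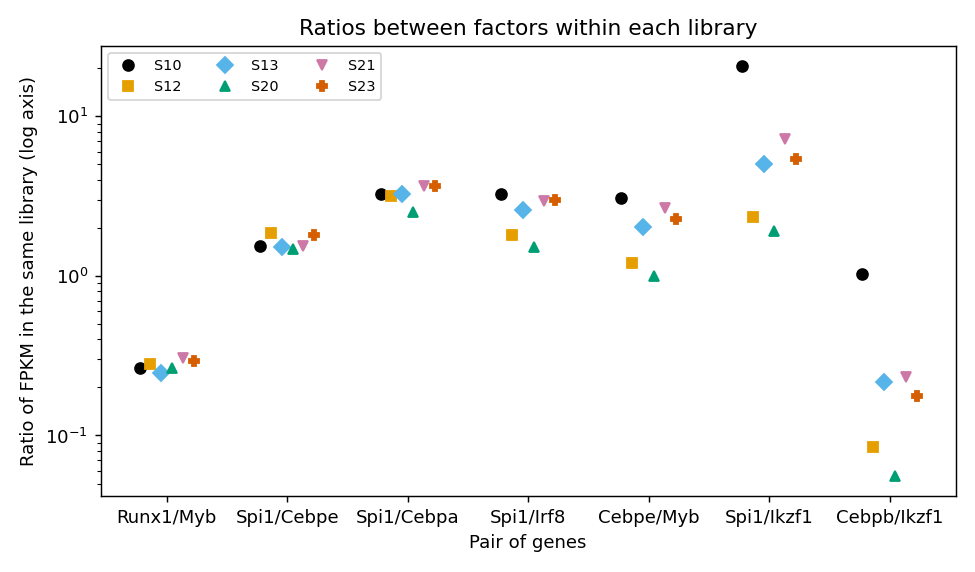
Ratio of FPKM of 7 pairs of factors within each library, on a log axis. Runx1/Myb and Spi1/Cebpe stay within 1.23-fold and 1.25-fold over the libraries, while Spi1/Ikzf1 runs from 1.91 in S20 to 20.6 in S10.

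The expressed genes most like each factor were ranked by the mean absolute difference of log2(FPKM + 1), each gene taken from its own median, over the 6 libraries. For Spi1 they were Il1rn, Qpct and Coro1a (0.045, 0.050 and 0.050 log2 units), against a median of 0.41 over all expressed genes. For Cebpe they were LOC24906, Fcgr1a and Card19 (0.038, 0.058 and 0.060). Il1rn encodes the interleukin-1 receptor antagonist, Coro1a an actin-binding protein of leukocytes and Fcgr1a an Fc receptor of myeloid cells. Among the factors themselves, the nearest to Spi1 was Cebpe at 0.108, and 55 expressed genes were nearer.

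Cebpa was nearest to Slc35c2, Twf2 and Rac2 (0.030, 0.034 and 0.038). Cebpb was nearest to Rpl12, Limd2 and Psmb10 (0.040, 0.049 and 0.050), and Gfi1 to Ykt6, Hyal3 and Map2k4 (0.051, 0.052 and 0.053). Runx1 was nearest to Nacc1, Clip1 and Sec24c (0.022, 0.029 and 0.034), Myb to Ppip5k2, Syne3 and Atxn3 (0.034, 0.035 and 0.039), and Irf8 to Tbrg1, Ptpn9 and LOC100294508 (0.028, 0.029 and 0.038). Gata2 was nearest to Lgalsl (0.015) and, at 0.062 each, Ift88 and AC096239.3. Ikzf1 had no profile as close in log2 units: its nearest genes were Pml, Wasf2 and Lims1 at 0.073, 0.110 and 0.120. Its median over all expressed genes was also the largest, at 0.66, against 0.25 (Irf8) to 0.41 (Spi1) for the other factors. Such likeness over 6 libraries describes the profiles, which share library depth and composition.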

How the data were processed

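RNA-seq libraries of rat subchondral bone were made with a SMARTER mRNA-Seq kit after RNeasy mini plus extraction, per the labels' protocols. The deposited table holds whole-number counts per gene, not normalized, and FPKM values that the authors computed, per the file headers. FPKM totals were 811992 to 1047310 per library. No aligner, counter or strand setting is named in the sources used here. GRCm38 and mm10, both of mouse, are the genome builds listed per the submitters' processing notes. Row IDs are rat, so no coordinates from those builds are given. The coordinates of the promoter windows shown are from GRCr8. In the reference GRCr8 the span of a lncRNA gene overlaps that of each of Spi1, Myb and Gata2. Exons and strands of these overlaps were not compared, so whether reads are shared is not known.

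Of 30610 rows, 10 without values were left out. The labels put no library in a group, so no group test was run and no p-value is given. Values were log2(FPKM + 1), a scale that understates changes of low genes, and genes were called expressed from a median of 1 FPKM up. Transcript length was that implied by count and FPKM. Factors, the 25 related lists (180 entries, 10 without a row) and rules were chosen with earlier results of these data known. Up to 4 genes with the highest medians were named per list, with 3 nearest profiles per factor; any further list gene in the text was picked with its values in view. Alternatives were TMM factors (edgeR 4.0.16), median-ratio factors, common sums, CPM from counts, a pseudocount of 0.1, length correction in 20 bins, other FPKM minimums and leaving out each library. The measures of spread and likeness were tested on simulated data. Python 3.11.15, pandas 2.3.3 and scipy 1.17.1 were used.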

Additional observations from a re-analysis of the deposited data

How the results depend on the processing

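All 10 factors kept a median of at least 1 under the scalings run for that count and without each library; length correction was not run for it. The number of factors spanning at least 1 log2 unit, 6 as deposited, was 3 with TMM factors, 3 with median-ratio factors and 3 with length correction, and 3 to 6 when a library was left out; with common sums, CPM or a pseudocount of 0.1 it was 6 to 9. The share of background genes with such a span, 36.6% as deposited, was 19.8% with length correction, 20.5% with no filter on low values, and 13.6% to 36.2% when a library was left out. The number of factors highest in S10 rose from 0 to 1 with TMM factors, median-ratio factors or length correction, and was 0 to 1 without single libraries. The number highest in S12 was 2 with a common sum that left out globin and mitochondrial rows and 1 to 3 without single libraries, that in S13 was 0 to 1 and that in S21 was 0 to 3, the last when S23 was left out. Of the 10 single ranges, 5 moved by more than 1 SD without S10. No paired analysis was possible because the labels give no groups. Depth did not limit these genes, whose lowest count was 118, but 6 ungrouped libraries allow no statement on temperature.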

Other observations

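The eosinophil granule genes Prg2, Prg3 and Epx spanned 5.35, 7.26 and 4.51 log2 units, each more than any of the 10 factors. Prg2, the major basic protein gene of eosinophil granules, had 96.0 FPKM in S20 and 1451 to 3958 FPKM in the other libraries. Epx, the eosinophil peroxidase gene, had 11.7 FPKM in S20 against 142 to 290 elsewhere, and Prg3 had 5.06 FPKM in S20 against 295 to 930. Il5ra, the interleukin-5 receptor of that lineage, had 27 counts in S20 and up to 701 elsewhere. Ccr3, the eotaxin receptor and the other gene of the list, was not lowest there, with 5.59 FPKM in S20 and 4.72 in S23. Factors known to act in eosinophils did not share this drop in size, although S20 was the lowest library as deposited for both Cebpe and Spi1. In S20 Cebpe had 43.8 FPKM against a median of 58.2, Spi1 64.7 against 92.3, and Gata2 its highest value of 11.8.

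Spib, an ETS relative of Spi1 that acts in B cells and plasmacytoid dendritic cells, followed another order of libraries than Spi1. Spib had 63.9 FPKM in S12, 44.6 in S13, 22.1 in S10 and in S20, 14.9 in S21 and 8.80 in S23, so that S23, the highest library for Spi1, was its lowest. The B cell genes Cd79b (83.6 FPKM in S12, 20.3 in S23) and Pax5 (11.6 and 1.76) had the same highest and lowest libraries, as did Rag2. Vpreb1, Igll1, Rag1 and Dntt were instead highest in S20 and lowest in S21, and Ebf1 was highest in S12 and lowest in S21.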
